A study of Mus musculus with 18 samples.

Results

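The histone genes of the Hist1, Hist2, Hist3 and Hist4 clusters were followed in bone marrow-derived macrophages (BMDMs). They were taken as the rows whose symbol starts with Hist, a cluster number from 1 to 4 and h, which gave 67 of the 25926 genes in the table. Of these, 6 encode H1, 18 encode H2A, 18 encode H2B, 12 encode H3 and 13 encode H4. RNA-seq covered 18 samples, 6 in each of 3 groups, all of BMDMs from C57BL/6 mice grown for 7 days with M-CSF at 50 ng/mL and then kept in the upper chamber of a Transwell plate above tubular epithelial cells (TECs). In NC, BMDMs received PBS above TECs without crystals. In COM, BMDMs received PBS above TECs given 100 μg/mL calcium oxalate monohydrate (COM), the main crystal of kidney stones, for 24 h. In COM+Met, the TECs were given COM in the same way and the BMDMs were given 5 mM Met, an agent that the labels do not spell out, for 24 h. TECs were in all groups, and no group held Met without COM or BMDMs alone. Whether replicates were separate mice or cultures is not given in the labels, so p-values measure the spread between these samples only, which may be technical.

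Core histones H2A, H2B, H3 and H4 form the protein spool of the nucleosome, and H1 binds the linker DNA where it enters and leaves. Genes of these clusters are mostly read during S phase, when new chromatin is packed, and their mRNAs usually end in a short stem-loop bound by Slbp instead of in a poly(A) tail. Some of them also give polyadenylated transcripts in cells that have stopped dividing. The labels name a TruSeq RNA kit, a kind of kit that commonly selects poly(A) RNA, so that transcripts without a tail are expected to be under-represented in such libraries, and the values below are levels of what the libraries held.

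The stem-loop and the promoter are what these genes share, and both are shown for the members on which the comparisons turn. All 67 members were found by Ensembl identifier in GENCODE M21 on GRCm38, with 54 on chromosome 13, 10 on chromosome 3, 2 on chromosome 11 and 1 on chromosome 6. A perfect 6-base stem around a 4-base loop, searched as TT, any base and then C, was found within 150 bases after the coding end in 35 members. The 3 versions found differ only within the stem, and the search itself left little room for differences in the loop. The most common version stood in 26 members of the H1, H2A, H2B and H3 classes, and both others stood in H4 genes, in 7 and 2 members. The stem-loop is in capitals below with 5 flanking bases on each side, from the 3′ UTR of the annotated transcript. The H1, H2A and H2B genes shown are among the 6 members with the highest levels, where Hist2h2aa2 held the same stem-loop as Hist2h2aa1, and Hist1h4c and Hist1h4j stand for the H4 versions.
Hist1h1c, chr13:23739512-23739527 (+ strand): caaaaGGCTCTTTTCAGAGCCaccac
Hist2h2aa1, chr3:96246032-96246047 (+ strand): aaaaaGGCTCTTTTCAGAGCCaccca
Hist3h2a, chr11:58955172-58955187 (+ strand): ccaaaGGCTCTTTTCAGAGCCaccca
Hist1h2bg, chr13:23571843-23571858 (+ strand): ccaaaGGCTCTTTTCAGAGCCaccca
Hist1h4c, chr13:23698089-23698104 (- strand): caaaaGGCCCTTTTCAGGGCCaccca
Hist1h4j, chr13:21735437-21735452 (+ strand): ctaaaGGTCCTTTTCAGGACCaccac
No such stem-loop was found in the annotated transcripts of Hist1h2bc, Hist2h2be and Hist1h4i, which says only that these letters were not in that window. A stem with a mismatch or another loop would have been missed. Of the 32 members without a match, 15, Hist1h4k among them, were annotated with fewer than 16 bases past the stop codon, too few to hold one.

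Promoters of 300 bases, 250 before to 50 after the start, were taken from RefSeq (GRCm38.p6) for 61 members, with 62 promoters in all. CCAAT was searched on both strands, with overlapping matches allowed, and stood in 53 of the 62 histone promoters (85.5%) against 37.4% of all 32851 promoters. All 50 promoters of the H1, H2A, H2B and H3 genes held it, and 3 of 12 H4 promoters did. TATAAA stood in 35 (56.5%) against 13.6% of all promoters. ATTTGCAT, the octamer known from H2B promoters, stood in 14 (22.6%), 7 of H2A and 7 of H2B genes, against 1.74% of all promoters. Some H2A and H2B genes start close together on opposite strands, so their promoters overlap. The same site is then counted for both genes, as with the octamer of Hist1h2ae and Hist1h2bg. For every motif the counts are thus of promoters and not of separate sites. AAACACA, known as the H1 box, stood in 5 of 6 H1 promoters against 7.18% of all promoters. Matches to these 4 motifs are in capitals in the promoters of 4 genes that the comparisons below single out.
Hist1h1c, chr13:23738557-23738856 (+ strand): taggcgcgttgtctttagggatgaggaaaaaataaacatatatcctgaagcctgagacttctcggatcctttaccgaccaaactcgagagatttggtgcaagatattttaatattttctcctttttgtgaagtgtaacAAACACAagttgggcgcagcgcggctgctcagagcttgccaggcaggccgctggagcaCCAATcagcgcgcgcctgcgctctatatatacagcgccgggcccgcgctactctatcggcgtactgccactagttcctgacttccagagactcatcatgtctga
Hist1h2bg, chr13:23571150-23571449 (+ strand): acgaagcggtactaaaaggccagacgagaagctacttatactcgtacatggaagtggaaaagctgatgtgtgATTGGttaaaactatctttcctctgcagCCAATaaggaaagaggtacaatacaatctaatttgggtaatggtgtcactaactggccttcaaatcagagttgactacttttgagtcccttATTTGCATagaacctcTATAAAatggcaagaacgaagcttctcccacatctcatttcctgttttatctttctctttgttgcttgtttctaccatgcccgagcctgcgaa
Hist3h2a, chr11:58954435-58954734 (+ strand): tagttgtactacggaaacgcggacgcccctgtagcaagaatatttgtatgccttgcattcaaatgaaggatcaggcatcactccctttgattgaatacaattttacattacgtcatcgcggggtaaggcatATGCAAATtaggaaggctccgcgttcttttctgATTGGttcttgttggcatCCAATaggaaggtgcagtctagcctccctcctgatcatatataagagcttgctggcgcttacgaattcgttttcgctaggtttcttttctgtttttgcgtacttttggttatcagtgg
Hist1h4k, chr13:21750504-21750803 (- strand): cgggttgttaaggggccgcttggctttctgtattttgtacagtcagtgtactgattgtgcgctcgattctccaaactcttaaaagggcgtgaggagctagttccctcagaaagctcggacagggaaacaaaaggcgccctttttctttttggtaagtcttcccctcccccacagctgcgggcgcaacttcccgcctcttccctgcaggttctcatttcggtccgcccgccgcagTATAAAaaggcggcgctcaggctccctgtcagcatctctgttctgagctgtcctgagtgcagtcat
The Hist1h1c promoter held AAACACA and CCAAT, that of Hist1h2bg held CCAAT, ATTTGCAT and TATAAA, that of Hist3h2a held CCAAT and ATTTGCAT, and that of Hist1h4k held TATAAA alone.

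Values were FPKM, fragment counts scaled to gene length and to the sample's mapped total, which can be compared between genes, and the table does not give read depth. The FPKM of a sample summed to between 380731 and 449186. All 7 macrophage markers were detected in every group, with Lyz2 the highest. Of 10 tubular epithelial markers, only Cdh1 reached a mean of 1 FPKM, and only in NC, and the list summed to 10.9 to 18.2 FPKM in NC, 0.468 to 1.35 in COM and 0.0435 to 0.324 in COM+Met. Neutrophil markers summed to 532 to 1015 FPKM in NC, 170 to 551 in COM and 74.0 to 137 in COM+Met, with 3 of 9 at 0 in every COM sample and 2 at 0 in every COM+Met sample. These markers moved with the groups, and their part in the histone values was not tested. The samples NC-5, NC-6, COM-4, COM-5 and COM-6 stood apart within their groups, with sample correlations as low as 0.938 within NC and 0.888 within COM, against 0.989 or more within COM+Met.

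Few histone genes were read at an appreciable level. Over all 18 samples, 12 of the 67 members averaged 1 FPKM or more, 55 were below it, 40 never reached 1 FPKM in a sample and Hist1h2aa was listed at 0 throughout. The 6 highest members held 82.8 to 86.1% of all histone FPKM in NC, 84.9 to 90.7% in COM and 86.4 to 88.6% in COM+Met. They were the H1 gene Hist1h1c (mean 42.2 FPKM), the H2B genes Hist1h2bc (41.5 FPKM) and Hist1h2bg (9.15 FPKM), and the H2A genes Hist2h2aa1 (27.5 FPKM), Hist2h2aa2 (25.3 FPKM) and Hist3h2a (9.38 FPKM). The highest H4 gene was Hist1h4i, with 3.63 FPKM, and the highest H3 gene was Hist2h3c1, with 2.88 FPKM. H1, H2A, H2B and H3 were thus each led by 1 to 3 genes. H1 was led by Hist1h1c alone, since the other 5 H1 genes together reached at most 0.613 FPKM in any sample. In H4, the genes other than Hist1h4i held 1.44 of 2.82 FPKM in COM and 4.61 of 7.94 in COM+Met (group means).

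Annotated transcripts ran more than 100 bases past the stop codon in 31 members, and 10 of these had a mean of at least 1 FPKM. The other 36 members held 2 such genes, Hist1h2bn and Hist1h4k, both annotated with coding sequence only. The median level over members was 0.194 FPKM in the first set and 0.112 FPKM in the second. In Hist1h1c the annotated transcript ran 840 bases past the stem-loop, in Hist3h2a 1643 bases and in Hist1h2bg 155 bases. Hist1h2bc was annotated with 2 exons and 742 bases past its stop codon. The plot of level by 3′ end shows that long annotated ends were also common among genes near 0.

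**Figure D1:**
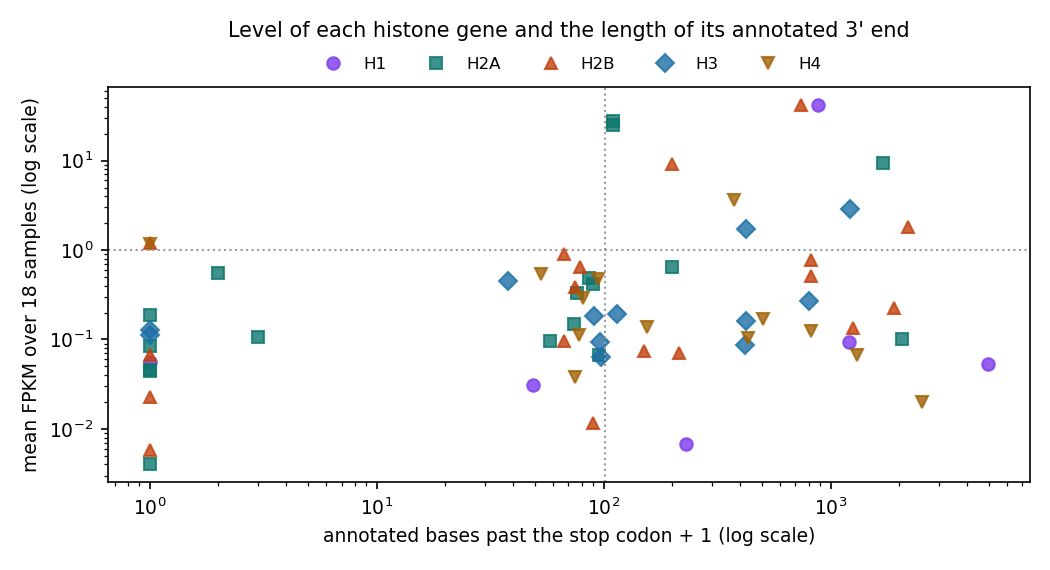
Mean FPKM over 18 samples (vertical, log scale) of the 67 histone genes against the number of annotated bases past the stop codon plus 1 (horizontal, log scale), with a symbol for each class and dotted lines at 1 FPKM and 100 bases. The gene listed at 0, Hist1h2aa, is drawn as the lowest square. Of the 12 genes above 1 FPKM, 10 lie to the right of 100 bases.

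H2A and H2B genes often lie head to head, and their levels were unequal. There were 12 pairs of members read outwards from starts at most 500 bases apart, each of an H2A and an H2B gene. In 8 pairs neither gene had a mean of 1 FPKM, and in the other 4 it was the H2B gene that did. Hist1h2bc had a mean of 41.5 FPKM and Hist1h2ac, whose start lies 250 bases away on the other strand, 0.101 FPKM. Hist1h2bg had 9.15 FPKM and Hist1h2ae, 175 bases away, 0.647 FPKM. Hist2h2be had 1.80 FPKM against 0.0672 FPKM for Hist2h2ac, and Hist1h2bn had 1.19 FPKM against 0.0837 FPKM for Hist1h2ak.

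Near-identical copies limit which gene a read can be given to. In 51 members the coding sequence matched another member of the class at 95% or more of its bases, and 10 members had a copy identical throughout. As a measure of this, the share of all 50-base stretches of a gene's transcripts that also stood in a transcript of another gene was counted. It was at least 50% in 34 members and 0 in 4. Among the genes named here it was 0 for Hist2h2be, 8.54% for Hist1h1c, 28.9% for Hist1h4i, 30.6% for Hist1h2bc, 31.5% for Hist3h2a, 49.7% for Hist1h2bg, 71.5% for Hist1h4k and 100% for Hist2h2aa1 and Hist2h2aa2. Hist2h2aa1 and Hist2h2aa2 showed what this does to the values. Hist2h2aa1 held 88.4% of the pair's FPKM in NC-5 and 47.2% in NC-3, and within COM its share ran from 36.0 to 82.6%. The pair is therefore given as a sum below, and so are Hist2h3c1 and Hist2h3c2, whose coding sequences are also identical.

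Summed over each class, histone FPKM was lower in every COM sample than in every NC sample for 4 of the 5 classes, and higher again in every COM+Met sample for the same 4. Across all 67 members the sum was 232 ± 14.0 FPKM in NC, 117 ± 32.6 in COM and 187 ± 9.63 in COM+Met (mean ± SD, n = 6 in each group). The 6 samples of each group stayed apart from those of the others. H1 summed to 81.8 ± 13.2 FPKM in NC, 16.7 ± 4.73 in COM and 28.7 ± 3.06 in COM+Met, with the 3 groups apart. H2B summed to 62.8 ± 8.31, 35.0 ± 7.35 and 74.9 ± 5.05 FPKM, so that COM lay below both other groups, which overlapped. H4 summed to 9.83 ± 0.942, 2.82 ± 1.5 and 7.94 ± 1.53 FPKM, again with COM below both other groups, which overlapped, but with a lower mean in COM+Met than in NC where H2B had a higher one. H3 summed to 9.08 ± 0.80, 3.96 ± 0.488 and 6.00 ± 0.940 FPKM, with the 3 groups apart, though the highest COM and the lowest COM+Met sample both rounded to 4.57 FPKM. H2A overlapped between all groups, with 68.8 ± 13.3, 58.5 ± 21.9 and 69.4 ± 5.05 FPKM. No test was made on sums. In bulk RNA, fewer cells that read these genes and less RNA per cell cannot be told apart.

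**Figure D2:**
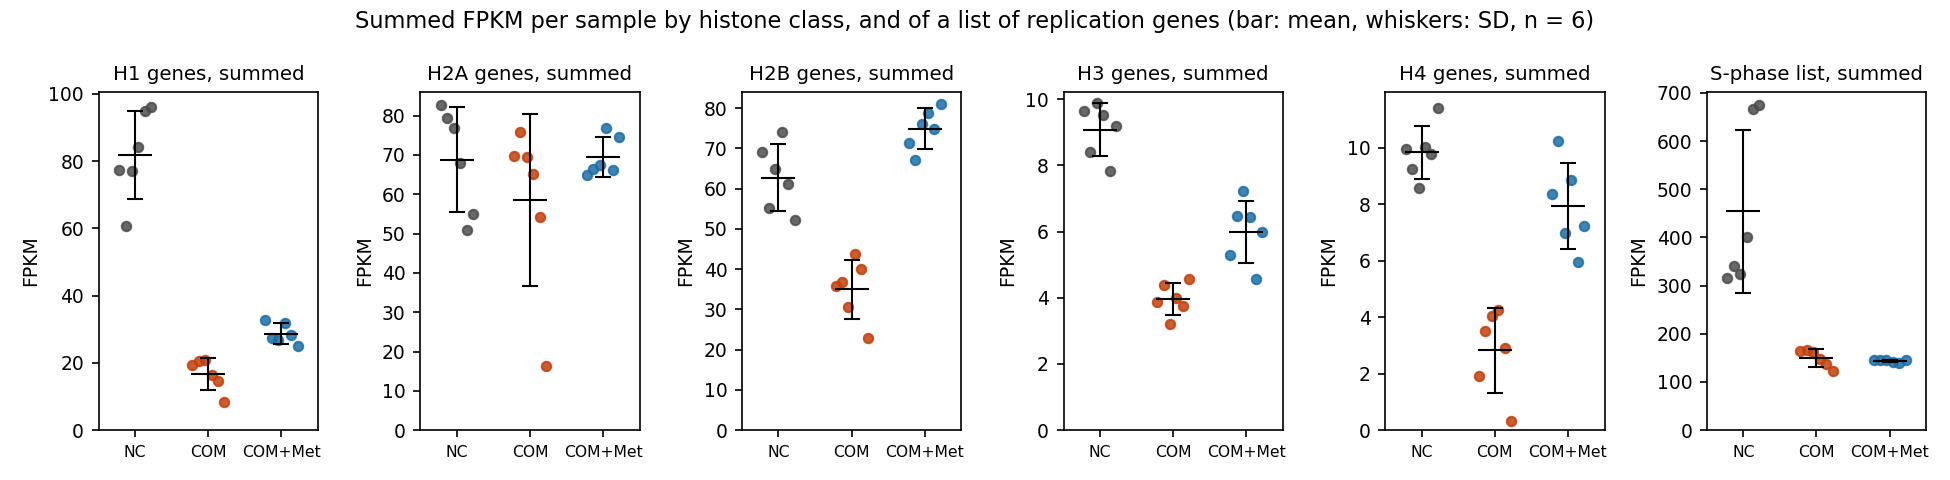
FPKM summed over the histone genes of each class, and over 26 DNA replication and S-phase genes, in each sample (points), with the mean and SD of each group (bar and whiskers, n = 6). H1, H2B, H3 and H4 sums were lower in every COM sample than in every NC sample and higher again in every COM+Met sample, whereas the S-phase list stayed between 139 and 146 FPKM in COM+Met against 122 to 167 in COM.

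COM was compared with NC to see how macrophages above crystal-treated TECs differed from those above untreated TECs. Hist1h1c, the gene of linker histone H1.2, and the H4 gene Hist1h4i fell more than 2-fold, and no histone gene tested with limma was called higher. Of 11 members that averaged 1 FPKM or more across the 12 samples compared, 2 were called lower, at an adjusted p below 0.05 and at least a 2-fold change, against 11.7% of the 10900 genes tested. None was called higher with limma, against 5.99% of all genes. At an adjusted p below 0.05 in limma, 0 of 11 were higher, against 12.7% of all genes tested. None was higher at an unadjusted p below 0.05 either. With so short a list, 2 of 11 called lower is near the 11.7% of all genes and is not read as a result about the members. At an adjusted p below 0.05 without the fold limit, 8 of 11 were lower with limma, against 40.6% of all genes tested. The identical copies Hist2h3c1 and Hist2h3c2 both count among them. Hist1h2bn is among these 8 and passed the filter only through NC, with means of 1.49 FPKM there and 0.541 in COM. That favours a lower value in COM. Of the other 10 members, 2 were called lower. The median log2 fold change of the 11 members was -0.57, beside -0.27 for all genes tested. Size factors computed across genes moved the median of all genes to 0.00, with 864 genes called higher and 821 lower in place of 653 and 1273. Under them 8 of the 11 members were below 0, in place of 10 of 11, and the number called lower was again 2.

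Hist1h1c had 60.6, 80.5 and 95.8 FPKM in NC (lowest, median and highest sample), and 8.37, 17.8 and 20.7 in COM. Every COM sample was below every NC sample, and COM-6 was the lowest. The log2 fold change on the log2(FPKM + 1) scale was -2.27 with an SE of 0.20 and a limma adjusted p of 1.87e-06, which is -2.0 relative to the median of all genes. Hist1h1c is the only H1 gene that reached the filter for limma. Hist1h4i had 4.73, 6.52 and 7.10 FPKM in NC, and in COM it was listed at 0 in COM-6, with a median of 1.69 and a highest value of 2.13. The groups were again apart. Its log2 fold change was -1.67 (SE 0.25, limma adjusted p = 0.000131), or -1.40 relative to the median of all genes, and the call was lost with a pseudocount of 5 (-0.81).

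Both H2B genes of high level were lower by less than 2-fold. Hist1h2bc had 37.7, 44.1 and 51.5 FPKM in NC and 18.8, 25.2 and 35.1 in COM, with the groups apart and a log2 fold change of -0.73 (SE 0.14, limma adjusted p = 0.000926). Hist1h2bg had 2.87, 9.95 and 13.1 FPKM in NC and 1.93, 4.43 and 6.86 in COM. The groups overlapped through NC-6, the lowest NC sample, and COM-6 was lowest in COM. With all samples the log2 fold change of Hist1h2bg was -0.87 (SE 0.31, limma adjusted p = 0.0322), and without NC-6 it passed the 2-fold limit at -1.13 (limma adjusted p = 0.00225). Hist2h2be, an H2B gene with no 50-base stretch shared with another gene, had 1.79, 2.42 and 4.35 FPKM in NC and 1.01, 1.60 and 1.85 in COM. The groups overlapped through NC-6, and the log2 fold change was -0.57 (SE 0.16, limma adjusted p = 0.0099).

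The H2A genes of high level were not called and did not separate the groups. Hist2h2aa1 and Hist2h2aa2 together had 36.3, 58.0 and 68.6 FPKM in NC and 10.3, 57.1 and 68.0 in COM. The lowest COM value was that of COM-6, and the medians were close. Taken alone, Hist2h2aa1 had a log2 fold change of -0.29 (SE 0.29) and Hist2h2aa2 of -0.19 (SE 0.65), both without passing the limma test. Both values turned above 0 with size factors and without COM-4, COM-5 and COM-6. Hist3h2a had 5.40, 8.0 and 8.73 FPKM in NC and 5.33, 7.20 and 11.1 in COM, with a log2 fold change of 0.02 (SE 0.18), which fell below 0 without NC-5 and NC-6. Across H3, Hist2h3c1 and Hist2h3c2 together had 3.56, 6.19 and 7.24 FPKM in NC and 2.46, 3.21 and 3.67 in COM, where the ranges overlapped through NC-5. Hist2h3c1 alone had a log2 fold change of -0.53 (SE 0.14, limma adjusted p = 0.00661), and Hist2h3c2 of -0.55 (SE 0.21, limma adjusted p = 0.0443). Of the 11 tested members, 4 had every COM sample below every NC sample, beside 29.7% of all genes tested. Hist1h2bn, which passed the filter only through NC, is among these 4.

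**Figure D3:**
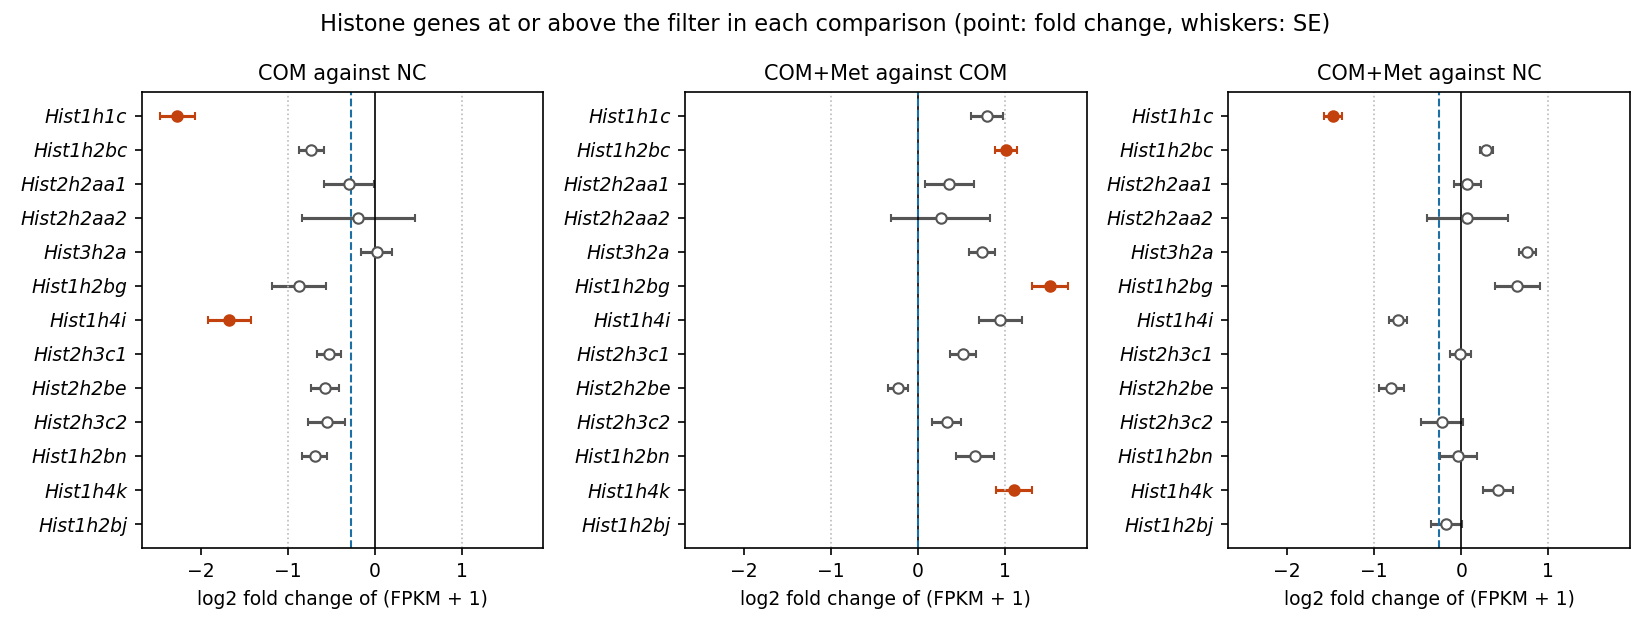
Log2 fold change of FPKM + 1 (horizontal) with its SE for each histone gene that reached the filter, in the 3 comparisons, ordered by mean FPKM from top to bottom. Filled points were called, dotted lines mark 2-fold and the dashed line the median of all genes tested. Hist1h1c and Hist1h4i were called lower in COM, and Hist1h2bc, Hist1h2bg and Hist1h4k were called higher in COM+Met than in COM.

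COM+Met was compared with COM to see what Met changed in macrophages above crystal-treated TECs. Hist1h2bg and Hist1h2bc of H2B and Hist1h4k of H4 rose at least 2-fold, and the H1 gene and the other H4 gene were also higher. Of 12 members tested, 3 were called higher, against 0.608% of the 10364 genes tested (63 genes). Without COM-4, COM-5 and COM-6, 3 of 12 were again called higher, against 236 of 10373 genes. Hist1h4k, called higher, and Hist1h2bn, not called, had COM means of 0.359 and 0.541 FPKM and passed the filter only through COM+Met, with 1.97 and 1.55 FPKM, which favours a higher value there. Of the other 10 members, 2 were called higher. None of the 12 was called lower with limma, against 1.61% of all genes. At an adjusted p below 0.05 in limma, 0 of 12 were lower, against 7.58% of all genes tested. None was lower at an unadjusted p below 0.05 either. At an adjusted p below 0.05 without the fold limit, 7 of 12 were higher with limma, against 5.77% of all genes tested. Hist1h4k is among these 7. The median log2 fold change was 0.70 over the 12 members and 0.0033 over all genes, and 11 of 12 members were above 0. In 6 of the 12, again with Hist1h4k among them, every COM+Met sample was above every COM sample, against 5.83% of all genes. This comparison shares the COM samples with the one above, so that a low COM sample moves both.

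Hist1h2bg had 11.2, 14.6 and 16.3 FPKM in COM+Met (lowest, median and highest), all above the highest COM sample at 6.86. Its log2 fold change was 1.52 (SE 0.21, limma adjusted p = 0.000678). Hist1h2bc had 50.4, 53.3 and 58.8 FPKM in COM+Met, all above the highest COM sample at 35.1, with a log2 fold change of 1.01 (SE 0.13, limma adjusted p = 0.00038). This lay at the 2-fold limit, and the call was lost without COM-3 (0.99), COM-6 (0.92), COM+Met-3 (0.99) or COM+Met-4 (1.00 after rounding) and with TPM (0.97), at limma adjusted p of at most 0.00174 in each. The third H2B gene, Hist2h2be, did not share the direction, with 0.792, 1.14 and 1.34 FPKM in COM+Met and a log2 fold change of -0.23 (SE 0.12, limma adjusted p = 0.214).

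Hist1h4k had 0.0621, 0.265 and 0.762 FPKM in COM and 1.06, 1.86 and 3.44 in COM+Met. The groups were apart, and COM+Met-2 was the highest sample. The log2 fold change was 1.10 (SE 0.21, limma adjusted p = 0.00438), which fell to 0.37 with a pseudocount of 5, and with 71.5% of its stretches shared the gene of origin is uncertain. Hist1h4i had 2.88, 3.14 and 4.27 FPKM in COM+Met, all above the highest COM sample. Its log2 fold change was 0.95 (SE 0.24, limma adjusted p = 0.0212), and it passed 2-fold without COM-2 (1.05), COM-3 (1.02) or COM-4 (1.03).

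Hist1h1c, which had 24.8, 27.7 and 32.6 FPKM in COM+Met, was above every COM sample, with a log2 fold change of 0.79 (SE 0.18, limma adjusted p = 0.0134). Hist3h2a had 12.2, 13.1 and 13.8 FPKM in COM+Met, again above every COM sample, with a log2 fold change of 0.74 (SE 0.15, limma adjusted p = 0.00758). Thus the H2A gene that did not differ detectably between COM and NC was higher in COM+Met. Hist2h2aa1 and Hist2h2aa2 together had 50.2, 52.3 and 61.7 FPKM in COM+Met, within the range of COM. Their single log2 fold changes were 0.36 (SE 0.29) and 0.26 (SE 0.57), without passing the limma test, and both turned below 0 without COM-4, COM-5 and COM-6. Hist2h3c1 and Hist2h3c2 together had 4.04, 5.06 and 5.92 FPKM in COM+Met, above every COM sample, and Hist2h3c1 alone had a log2 fold change of 0.52 (SE 0.15, limma adjusted p = 0.0349).

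**Figure D4:**
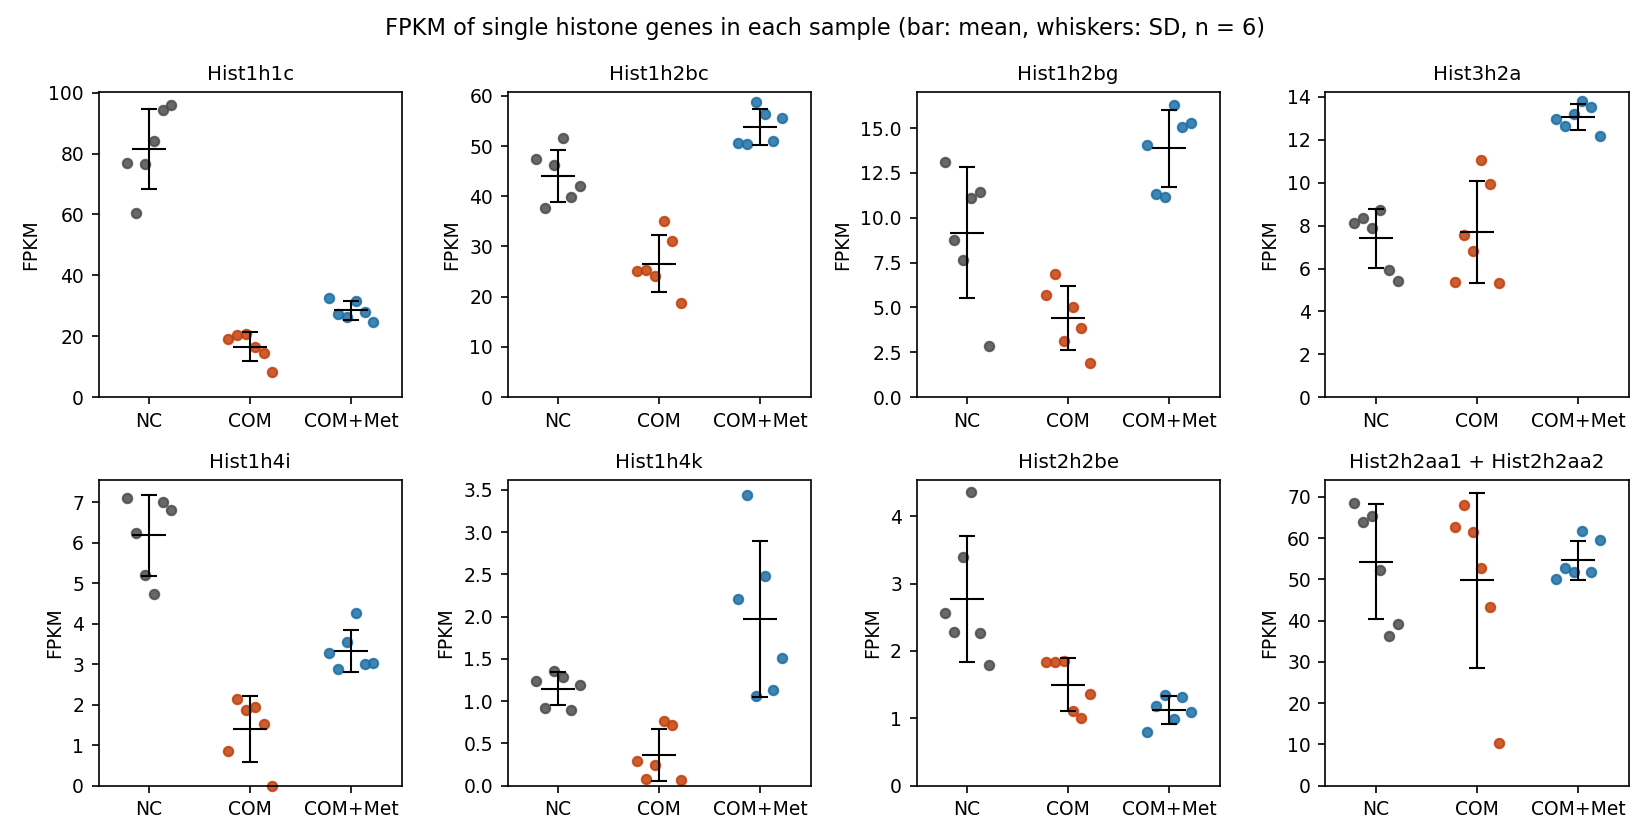
FPKM in each sample (points) for 7 histone genes and for the sum of the near-identical Hist2h2aa1 and Hist2h2aa2, with the mean and SD of each group (bar and whiskers, n = 6) and a vertical axis from 0. Hist1h1c stayed far below NC in COM+Met, Hist1h2bc and Hist1h2bg were back in or above the range of NC, and Hist3h2a was above both other groups in every COM+Met sample.

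COM+Met was set against NC to show how far each gene differed from macrophages above untreated TECs. Hist1h1c was the single member called lower among 13 tested, against 13.6% of the 10786 genes tested, and none was called higher with limma, against 5.66% of all genes. At an unadjusted p below 0.05 in limma, 4 members were higher and 3 lower, and all 7 also had an adjusted p below 0.05, which 19.3% of all genes reached in the higher and 55.9% in the lower direction. The median log2 fold change was -0.01 over the 13 members and -0.26 over all genes, and 0.01 over all genes with size factors, which called 839 genes higher and 985 lower in place of 611 and 1467. For Hist1h1c the log2 fold change was -1.47 (SE 0.11, limma adjusted p = 5.04e-08), or -1.21 relative to the median of all genes. In COM+Met, the highest sample of Hist1h1c, at 32.6 FPKM, was below the lowest of NC, at 60.6 FPKM.

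Other members lay on both sides of NC. Hist3h2a was higher in every COM+Met sample than in any NC sample, with a log2 fold change of 0.76 (SE 0.10, limma adjusted p = 1.42e-05), and it was called higher with size factors (1.04) and with quantile normalization (1.02). Hist1h2bg was 0.65 above NC on the log2 scale (SE 0.26, limma adjusted p = 0.0387), Hist1h2bc 0.29 above (SE 0.07, limma adjusted p = 0.00378) and Hist1h4k 0.42 above (SE 0.17, limma adjusted p = 0.0428). Below NC lay Hist1h4i, with a log2 fold change of -0.72 (SE 0.10, limma adjusted p = 2.96e-05), and Hist2h2be, with -0.80 (SE 0.14, limma adjusted p = 0.000197). Hist1h2bc and Hist2h2be are both H2B genes and differed from NC in opposite directions. Of the 13 members, 1 was higher in every COM+Met sample than in every NC sample and 3 were lower in every one, beside 14.1% and 43.6% of all genes tested.

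For members below the filter an exact permutation test, two-sided, was used, and 0.00216 is the smallest p that 6 against 6 can give. Between COM and NC, 53 of 55 such members had a lower mean in COM, with no share of all genes counted beside it. Genes in general leaned the same way, with a median of -0.073 on the log2 scale over 20315 genes without the filter. Members that share stretches are also not separate observations. Of the 55, 8 had every COM sample below every NC sample, against 7.06% of the 9415 genes below the filter. These were Hist1h2ac, Hist1h2af, Hist1h2ag and Hist1h2ao of H2A, Hist1h2bj and Hist1h2bp of H2B, Hist1h3h of H3 and Hist1h4k of H4. Groups that do not overlap always give the smallest p, so it adds nothing to their being apart. The permutation p-values were not adjusted for the number of members. Hist1h2af had 0.578 to 3.04 FPKM in NC and was listed at 0 in all 6 COM samples. Of its 50-base stretches, 94% also stood in another gene, so its values can depend on how shared reads were assigned. The share was 93.9% for Hist1h3h, 93.5% for Hist1h2ao, 78.9% for Hist1h2ag, 71.5% for Hist1h4k and 59.4% for Hist1h2bj. It was 44.1% for Hist1h2bp and 14.1% for Hist1h2ac. Where it is high, the gene of origin is uncertain. Between COM+Met and COM, 37 of 52 had a higher mean in COM+Met, again with no share of all genes counted beside it. Hist1h2bf, Hist1h4j and Hist1h4n had every COM+Met sample above every COM sample, against 0.844% of 9123 genes. Their shared stretches were 65.8%, 24.6% and 85.6%. Between COM+Met and NC, Hist1h2ac, Hist1h2af and Hist1h2ag were lower in every COM+Met sample, 3 of 53 members against 12.6% of 9290 genes. Hist1h2af reached at most 0.137 FPKM in COM+Met. The H2A genes outside the leading 3 thus summed to 3.67 to 10.2 FPKM in NC, 0.213 to 1.74 in COM and 0.909 to 2.92 in COM+Met, and their COM and COM+Met values overlapped. The H4 genes other than Hist1h4i summed to 2.78 to 5.29 FPKM in NC, 0.307 to 2.32 in COM and 2.95 to 7.35 in COM+Met, where COM+Met was above every COM sample.

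Genes that work with histones were taken from 4 fixed lists. The counts called in COM against NC stand beside the 11.7% of all genes called lower and 5.99% called higher there. Among 26 genes of DNA replication and S phase, 21 of 25 tested were called lower in COM than in NC and none higher with limma (24 and 1 at an unadjusted p below 0.05), with a median log2 fold change of -1.43. Ccna2 (cyclin A2) had a log2 fold change of -4.36 (limma adjusted p = 1.19e-07) and Rrm2, a subunit of ribonucleotide reductase, of -3.55 (limma adjusted p = 1.74e-06). Between COM+Met and COM, none of the 19 tested was called with limma (1 higher and 2 lower at an unadjusted p below 0.05), and the median log2 fold change was -0.07. The list summed to 317 to 674 FPKM in NC, 122 to 167 in COM and 139 to 146 in COM+Met. S-phase sums and the sums over all histone genes were both lower in COM than in NC. Sums of H1, H2B, H3 and H4 were higher in COM+Met than in COM, where the S-phase sums overlapped. The part of S phase in the histone values was not tested.

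Genes listed as replication-independent histone variants, whose mRNA is mostly polyadenylated, were often lower in COM. Of 9 tested, 6 were called lower and none higher with limma (8 and 0 at an unadjusted p below 0.05), with a median log2 fold change of -1.75. Cenpa, the H3 variant of centromeres, had a log2 fold change of -3.54 (limma adjusted p = 2.85e-08) and H1f0, the linker histone of differentiated cells, of -2.16 (limma adjusted p = 1.89e-05). H2afx, the variant marked at DNA breaks, had -1.96 (limma adjusted p = 0.000648) and H2afv, an H2A.Z gene, had -1.92 (limma adjusted p = 1.07e-05). The part of S phase or of the cell cycle in these values was not tested. None of the 9 was called in COM+Met against COM with limma (1 lower and 0 higher at an unadjusted p below 0.05), and the list summed to 435 to 716 FPKM in COM and 556 to 627 in COM+Met. The sums of the variants and of the S-phase genes thus overlapped between COM and COM+Met, where those of H1, H2B, H3 and H4 of the clusters were apart.

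Histone chaperones hand histones to DNA. Of 19 tested, 6 were called lower in COM than in NC, and Daxx, which deposits H3.3, was called higher (1.21, limma adjusted p = 0.00179). With limma, 14 were lower and 2 higher at an unadjusted p below 0.05. Among those that fell were Asf1b (-2.13, limma adjusted p = 2.83e-05), which carries H3 and H4, and Dnajc9 (-1.61, limma adjusted p = 6.3e-05). Of 11 tested genes of histone mRNA processing and supply, 2 were called lower and none higher with limma (5 and 0 at an unadjusted p below 0.05). This is near the 11.7% of all genes and is not read as a result about the list. Those called were Ccne2 (cyclin E2, -1.54, limma adjusted p = 7.55e-05) and its kinase Cdk2 (-1.18, limma adjusted p = 0.000162), while Slbp had -0.52 (limma adjusted p = 0.00826) and was not called. None of the 19 chaperones or of 10 processing genes tested was called between COM+Met and COM with limma. At an unadjusted p below 0.05, 6 chaperones were lower and 0 higher, and 1 processing gene was higher and 0 lower. Between COM+Met and NC, 19 of 25 S-phase genes, 6 of 9 variants, 6 of 19 chaperones and 2 of 11 processing genes were called lower, against 13.6% of all genes, which the processing genes were near, and Daxx was the only one called higher.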

How the data were processed

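The 18 BMDM RNA-seq samples (NC, COM and COM+Met, with 6 in each) were grouped and numbered from their titles. The authors deposited FPKM values, fragments scaled to gene length and to the sample's mapped total, and all 18 columns were used. In the submitters' processing notes, mm8, mm9 and Bowtie 0.12.2 appear with no role. No source used here gives the read length, quantifier, annotation or handling of multi-mapping reads, and near-identical genes depend on that handling. Depth is unknown, since low values did not show steps of whole reads (at most 0.417% of low genes shared 1 ratio between samples, to 3 decimals), so no counting interval is given.

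Values were transformed to log2(FPKM + 1). For each comparison, limma 3.58.1 (lmFit, eBayes with trend, R 4.3.3) was run on genes averaging 1 FPKM or more in its 12 samples, and p-values were adjusted by Benjamini-Hochberg over every gene tested. Calls needed an adjusted p below 0.05 and at least 2-fold on this scale, which understates changes of low genes. The limma steps were tested on simulated data. Members below the filter were compared by an exact permutation test. Named were the called members, the 10 highest by mean FPKM, members whose call changed with the scaling, their identical copies and up to 4 called genes of each list. Hist1h2bn, Hist1h2aa, the partners of head-to-head pairs, H4 genes shown for their stem-loop and genes below the filter that did not overlap were named after their values were seen, and so was Slbp. The members and gene lists were chosen with earlier results of these data known. Gene models came from GENCODE M21 and promoters from RefSeq, both on GRCm38, matched by Ensembl identifier and by symbol or synonym. Python 3.11.15, pandas 2.3.3, numpy 2.4.6, scipy 1.17.1, Biopython 1.88 and matplotlib 3.10.9 were used. Alternatives covered the pseudocount, filter, scaling, replicate block, sample weights, a fit of all 18 samples and samples left out.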

Additional observations from a re-analysis of the deposited data

Results flagged for a closer look

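Of 48 sets of 6 samples examined, the 11 named histone genes and the 5 class sums in each of 3 groups, 2 had a sample far from the other 5, where chance alone gives about 1 in 20. Both were COM-6. Its H2A sum was 16.3 FPKM, against a median of 69.6 FPKM over the other 5 COM samples, and its Hist2h3c2 value was 0.623 FPKM, against a median of 1.26 FPKM. Its identical copy Hist2h3c1 was highest in COM-6 among the COM samples, with 2.99 FPKM and 82.8% of the pair, and the pair's sum of 3.61 FPKM lay within the COM range of 2.46 to 3.67 FPKM, so the low value was not seen in the sum. COM-6 was also the lowest COM sample for Hist1h1c, Hist1h2bc, Hist1h2bg and Hist1h4i. Without COM-6, the log2 fold change of Hist2h2aa2 in COM against NC went from -0.19 to 0.38 and that in COM+Met against COM from 0.26 to -0.31. The cause was not tested.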

How the results depend on the processing

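Of 871 values under an alternative, 809 were rated the same. For a fold change this meant the same direction and the same side of the call. For a number of members called it allowed a small change, so that 2 becoming 3 was rated the same. The number of members called lower in COM against NC, 2, became 4 with a pseudocount of 0.1, 1 with a pseudocount of 5 and 1 with a filter of 5 FPKM, and was 3 with no filter, without NC-5 and NC-6, and without COM-4, COM-5 and COM-6. The number called higher in COM+Met against COM, 3, became 1 with a pseudocount of 5, and was 4 with a pseudocount of 0.1, 2 with a filter of 5 FPKM and 2 with TPM. It stayed at 3 with sample weights, while 216 of all genes were called higher in place of 63. In COM+Met against NC, 1 member was called higher with size factors and 1 with quantile normalization in place of 0, and the number called lower, 1, became 2 with a pseudocount of 0.1 and 2 with no filter. Leaving out 1 sample at a time gave 2 to 3, 2 to 4 and 1 to 1 for these 3 counts. The causes were not tested beyond what each setting changes.

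Values that were not called changed sign. In COM against NC, Hist2h2aa1 was 0.012 with size factors and 0.14 without COM-4, COM-5 and COM-6. Hist2h2aa2 was 0.094 with size factors, 0.0025 with quantile normalization, 0.013 with sample weights and 0.50 without those 3 samples, and ran from -0.61 to 0.38 with 1 sample left out. Hist3h2a was -0.21 with sample weights, -0.14 without NC-5 and NC-6 and -0.14 without COM-4, COM-5 and COM-6, and ran from -0.083 to 0.10. In COM+Met against COM, Hist2h2aa1 was -0.035 with sample weights and -0.075 without COM-4, COM-5 and COM-6, and Hist2h2aa2 was -0.40 and -0.43, running from -0.31 to 0.49 with 1 sample left out. In COM+Met against NC, with sample weights and without NC-5 and NC-6, Hist2h2aa1 was -0.075 and -0.020 (-0.042 to 0.12 with 1 sample left out) and Hist2h2aa2 -0.41 and -0.48 (-0.36 to 0.30). Hist2h3c1 was 0.23 with size factors and 0.33 with quantile normalization (-0.082 to 0.049 with 1 sample left out), and Hist2h3c2 was 0.15 with quantile normalization.

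Same-numbered samples did not deviate together, with correlations from -0.22 to 0.06, so the numbers were not taken to pair them. With the replicate block, 2 members were called lower in COM against NC, 3 higher in COM+Met against COM and 1 lower in COM+Met against NC, and it changed no other count of members called. Precision is limited by unknown depth, by levels below 1 FPKM in most members and by the unknown split of reads between copies.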
